A study of Homo sapiens with 4 samples.

Results

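The RNAs described here are those of the 3 PRRC2 genes: PRRC2A (ENSG00000204469.8), PRRC2B (ENSG00000130723.13) and PRRC2C (ENSG00000117523.11). They were taken by gene identifier from lists of binding peaks of the RNA-binding protein ZFR, and they held 573 of the 595484 peaks listed over 4 libraries, under 3 of 17764 gene identifiers. The family was singled out because PRRC2B holds many peaks found in both ZFR libraries. The number of its shared peaks, and its levels in these libraries, are therefore given as a description and carry no test. PRRC2A and PRRC2C were taken as its paralogues.

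The libraries came from Flp-In T-REx-293 cells, a human line of embryonic kidney origin, carrying a stable FLAG-tagged ZFR transgene at an FRT recombination site. All 4 libraries share this genotype, the polyclonal cell population and the induction of the transgene with doxycycline at 1 µg/mL for 48 to 72 h. The groups were 2 eCLIP libraries and 2 size-matched inputs. Enhanced crosslinking and immunoprecipitation (eCLIP) recovers RNA that ultraviolet light, here 400 mJ/cm2, has joined to the tagged protein, and the size-matched input is prepared from the same gel region without immunoprecipitation. The bound ZFR was thus an induced, tagged copy, and no library of cells without the tag was analysed here. Whether the replicate libraries were made from different cultures is not labelled. The p-values can therefore reflect no more than library-to-library variation, possibly technical.

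PRRC2A, PRRC2B and PRRC2C encode large, proline-rich, mostly disordered cytoplasmic proteins that associate with messenger RNA and the translation initiation machinery. PRRC2A has been described as a reader of methylated adenosine in RNA, PRRC2B as a factor that aids translation of selected messages, and PRRC2C as a protein needed for efficient stress granule assembly. ZFR, a zinc finger protein with a DZF domain, binds RNA largely in the nucleus and is known for its part in alternative splicing. The measurements below concern ZFR contacts on the RNAs of the 3 genes, not their proteins.

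The lists differed greatly in length. eCLIP replicate 1 held 479308 peaks, eCLIP replicate 2 held 41904, input 1 held 63068 and input 2 held 11204. A peak is an interval on one strand with a p-value and a whole number of at least 3, read here as the reads in the peak. Because lists of such unequal length cannot be compared by raw counts, a gene's peaks are given as peaks per 10000 peaks of the library, and its reads as reads per 10000 reads in peaks. The 95% Wilson intervals beside them cover counting error only.

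All 3 genes lie on the plus strand. In hg19 coordinates, counted from 1, the peaks of PRRC2A ran from 31590644 to 31604723 on chromosome 6, a span of 14.1 kb. Those of PRRC2B ran from 134269506 to 134375351 on chromosome 9, a span of 106 kb. Those of PRRC2C ran from 171454772 to 171562596 on chromosome 1, a span of 108 kb. These spans run from the first to the last listed base over the 4 libraries and need not match the ends of the genes. Exons, introns and untranslated regions were not assigned here, and no sequence of the build was used. Across the spans, peaks listed under another identifier were found once: eCLIP replicate 1 listed 1 interval inside PRRC2C under ENSG00000239373.2. No library listed a peak on the opposite strand within any of the 3 spans.

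PRRC2B carried the most peaks and PRRC2A the fewest in every library. The eCLIP lists held 233 PRRC2B peaks in replicate 1 and 80 in replicate 2, and the inputs held 28 and 14. Per 10000 peaks of the library these were 4.86 (95% interval 4.28 to 5.53), 19.1 (15.3 to 23.8), 4.44 (3.07 to 6.42) and 12.5 (7.45 to 21). Both libraries numbered 2 lay above both numbered 1, and the eCLIP and input shares overlapped. By number of peaks PRRC2B ranked 219 of 15839 genes in the first eCLIP list and 16 of 7728 in the second. In the inputs it ranked 202 of 11275 and 22 of 5891. It thus stood near the top of the inputs as well as of the eCLIP lists.

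PRRC2C was listed with 136, 26, 19 and 8 peaks in the same order. Its shares were 2.84 (2.40 to 3.36) and 6.20 (4.23 to 9.09) per 10000 peaks in eCLIP, and 3.01 (1.93 to 4.71) and 7.14 (3.62 to 14.1) in the inputs. The eCLIP and input values alternated, and within each number their intervals overlapped.

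For PRRC2A the eCLIP lists held 21 and 0 peaks, and the inputs held 5 and 3. Its shares were 0.438 (0.287 to 0.670), 0, 0.793 (0.339 to 1.86) and 2.68 (0.911 to 7.87) per 10000 peaks, so both measured eCLIP shares lay below both input shares. A count of 0 peaks in eCLIP replicate 2 allows a share of up to 0.716 per 10000 (3 counts of the list), which is above the share in eCLIP replicate 1. Its Wilson interval reaches 0.917, above the share in input 1. At this length the absence of PRRC2A from that list does not place it below eCLIP replicate 1 or, by the Wilson interval, below input 1. Both limits lie below the input 2 share of 2.68, but that share rests on 3 peaks and its interval begins at 0.911. The comparison set was the 8914 genes whose peaks summed to 10 or more. Of these, 27.2% had no eCLIP replicate 2 peak, 7.18% had none there but had an input 2 peak, and 10.2% had both eCLIP shares below both inputs.

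The comparison of eCLIP with input was fitted over all 8914 genes with limma, on log2(peaks per 10000 peaks + 0.5), a scale that understates the change of genes with few peaks. No gene passed an adjusted p of 0.05 (0% called higher and 0% lower; 112 higher and 62 lower at an unadjusted p under 0.05). For PRRC2A the difference of eCLIP minus input was -1.57 (SE 0.84) in log2 share, with an adjusted p of 0.995. For PRRC2C it was -0.13 (SE 0.86), also with an adjusted p of 0.995. For PRRC2B, given without a test, it was 0.36 (SE 1.02). Against a median of 0.16 over all genes tested, 1.11% of genes had a lower difference than PRRC2A, 32.5% a lower one than PRRC2C and 62.7% a lower one than PRRC2B. The median itself moved with the setting, to 0.41 with a pseudocount of 0.1 and to 0.83 among peaks with a p-value of at most 0.001. Neither of the tested genes, PRRC2A and PRRC2C, passed the test, which does not show that their shares were equal.

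Counted by reads rather than by peaks, PRRC2B stood further from its inputs. The eCLIP peaks of the gene held 3296 and 378 reads, and its input peaks 125 and 61. Per 10000 reads in peaks this was 10.7 and 16.5 for eCLIP, with 5.02 and 5.98 for input. Both eCLIP values lay above both input values, as they did in 25.0% of the genes tested. Within number 1 the eCLIP share of reads was 2.14 times the input share, and within number 2 it was 2.75 times. For peaks the same ratios were 1.09 and 1.53. Since PRRC2B was chosen from these libraries, nothing is read from the separation.

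For PRRC2C the shares of reads were 3.44 and 5.40 per 10000 with eCLIP, where input gave 3.13 and 3.92. The eCLIP share was 1.10 and 1.38 times the input share within numbers, where by peaks it had been 0.942 and 0.869 times. Its log2 difference accordingly changed sign, from -0.13 by peaks to 0.27 (SE 0.74) by reads, with an adjusted p of 0.985 in limma, and no direction can be given. For PRRC2A they were 0.302 and 0 with eCLIP, where input gave 1.00 and 0.882. Both eCLIP values lay below both inputs, as in 9.08% of genes. Its log2 difference by reads was -1.19 (SE 0.69), with an adjusted p of 0.935.

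**Figure D1:**
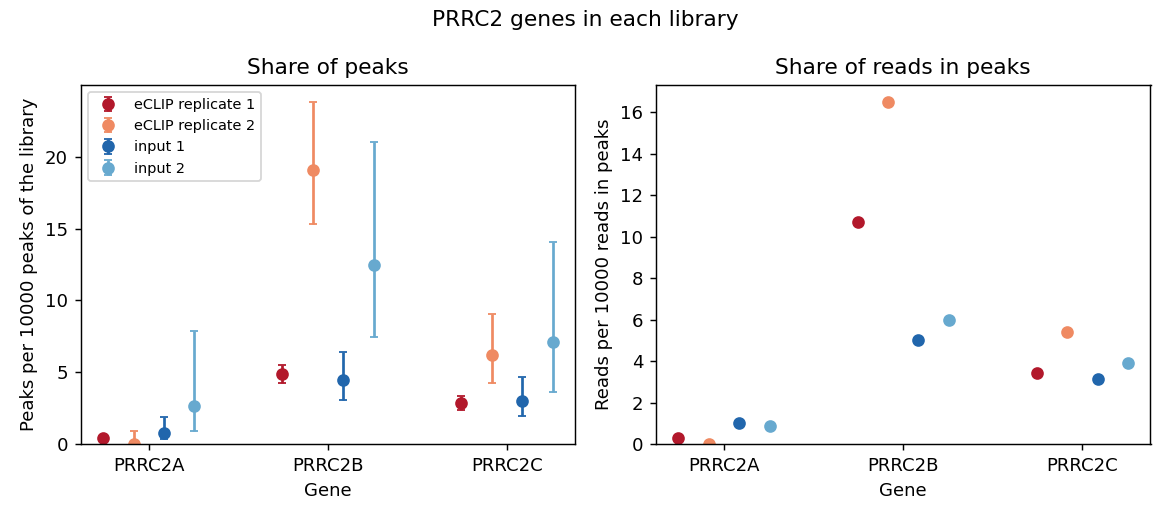
Share of each library's peaks (left, peaks per 10000 peaks, with 95% Wilson intervals) and of its reads in peaks (right, reads per 10000 reads in peaks) for the 3 genes, with 1 point per library. For PRRC2B the eCLIP and input points overlap by peaks (4.86 and 19.1 against 4.44 and 12.5) and are apart by reads (10.7 and 16.5 against 5.02 and 5.98).

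The spans differ in length, so levels between the genes were compared per kilobase of span. In eCLIP replicate 1 PRRC2B held 2.20 peaks per kb, PRRC2A 1.49 and PRRC2C 1.26, against a median of 0.855 over the tested genes with a peak. PRRC2A, with the fewest peaks, was thus the second densest per length. Reads in peaks per kb of eCLIP replicate 1 were 31.1 for PRRC2B, 9.81 for PRRC2C and 6.61 for PRRC2A, with a median of 3.90.

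In eCLIP replicate 2 the densities were 0.756 peaks per kb for PRRC2B, 0.241 for PRRC2C and 0 for PRRC2A. The order was different in the inputs. Input 1 held 0.355 peaks per kb of PRRC2A, 0.265 of PRRC2B and 0.176 of PRRC2C, and input 2 held 0.213, 0.132 and 0.0742 in the same order. The short PRRC2A span thus had the highest input density of the 3 genes, although on only 5 and 3 peaks.

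The genes also differed in how many reads a peak held. In eCLIP replicate 1 a PRRC2B peak held a median of 12 reads (lowest 5, highest 49), a PRRC2C peak 7 (3 to 41) and a PRRC2A peak 4 (3 to 8), where the whole list had a median of 4. PRRC2B had no peak at the minimum of 3 reads in that library, PRRC2C had 14 (10.3%) and PRRC2A 9 (42.9%). The share of peaks with a p-value of at most 0.001 was 77.7% for PRRC2B, 52.2% for PRRC2C and 19.0% for PRRC2A, against 23.3% over the list.

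The genes were closer in eCLIP replicate 2. There the median was 4 reads for PRRC2B (highest 15) and 3 for PRRC2C (highest 22). A p-value of at most 0.001 was listed for 16 of the 80 PRRC2B peaks and 6 of the 26 PRRC2C peaks. In the inputs the medians of all 3 genes lay between 3 and 5 reads. Peak widths were alike in the long genes, with eCLIP medians of 29 and 31 bases for PRRC2B and 25 and 28 for PRRC2C. The peaks of eCLIP replicate 1 covered 6.71% of the PRRC2B span, 3.72% of that of PRRC2A and 3.41% of that of PRRC2C.

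The positions of the peaks were then compared between libraries, with peaks called shared when they had at least 1 base in common on the same strand. In PRRC2B, 38 of the 233 eCLIP replicate 1 peaks (16.3%, 95% interval 12.1 to 21.6) met an eCLIP replicate 2 peak. In PRRC2C, 6 of 136 did (4.41%, 2.04 to 9.29), and in PRRC2A, which had no peak to meet, 0 of 21. Over the whole list the share was 2.96%. Seen from eCLIP replicate 2, 37 of 80 PRRC2B peaks (46.2%, 35.7 to 57.1) and 6 of 26 PRRC2C peaks (23.1%, 11 to 42.1) met a peak of eCLIP replicate 1, where the whole list gave 33.1%. The choice of PRRC2B rests on these overlaps, and for PRRC2C the interval spans the value of the whole list.

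Of the shared PRRC2B peaks of eCLIP replicate 1, 37 met no input peak, as did 5 of the 6 in PRRC2C. At least 1 such peak was found in 24.6% of the 15839 genes with eCLIP replicate 1 peaks. PRRC2A, with no peak in eCLIP replicate 2, could have none. The overlapping eCLIP replicate 2 peaks were not set against the inputs in this count, and some of them met an input peak. An example is the partner of the PRRC2B peak at 134271248 to 134271258, which met an input 2 peak of 3 reads. Counted on the eCLIP replicate 2 peaks instead, the numbers were 34 in PRRC2B and 6 in PRRC2C. The 37 placed PRRC2B at rank 11 of the 3903 genes with any, between genes with 36 and with 39. They held a median of 17 reads in eCLIP replicate 1 (lowest 7, highest 40), against 9 over all such peaks. Most of the 37 met an eCLIP replicate 2 peak with a p-value above 0.001. With every list limited to a p-value of 0.001 the count was 7 for PRRC2B and 2 for PRRC2C. At that limit PRRC2B kept 181 peaks in eCLIP replicate 1 and 16 in eCLIP replicate 2. Of the 16, 43.8% were met by eCLIP replicate 1, against 46.2% without the limit. The 7 include a peak outside the 37, at 134325991 to 134326024, since the input 2 peak it met (p-value 0.0282) was cut. All lists were also shortened to the 11204 peaks with the lowest p-values, the length of input 2. The count was then 0 for both genes, although 31 eCLIP replicate 1 peaks and 16 eCLIP replicate 2 peaks of PRRC2B remained. That cut left p-values of up to 5.67e-10 in eCLIP replicate 1, 0.00201 in eCLIP replicate 2 and 0.0497 in input 2.

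The share of PRRC2B peaks met by eCLIP replicate 2 was close to that of other peaks with as many reads, except in the class of 6 to 10 reads. In eCLIP replicate 1, 13 of 37 PRRC2B peaks with over 20 reads were met (35.1%, 21.8 to 51.2), against 36.7% of such peaks in the list. For 11 to 20 reads the values were 13.3% (8.21 to 20.8) and 11.3%. For 6 to 10 reads they were 13.2% (7.31 to 22.6) and 3.68%. None of the 7 PRRC2B peaks with 4 or 5 reads was met, against 1.35% of the list. The 63 PRRC2C peaks with 6 to 10 reads were met in 6.35% of cases (2.50 to 15.2) and the 25 with 11 to 20 reads in 2 cases. Its single peak with over 20 reads was not met.

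**Figure D2:**
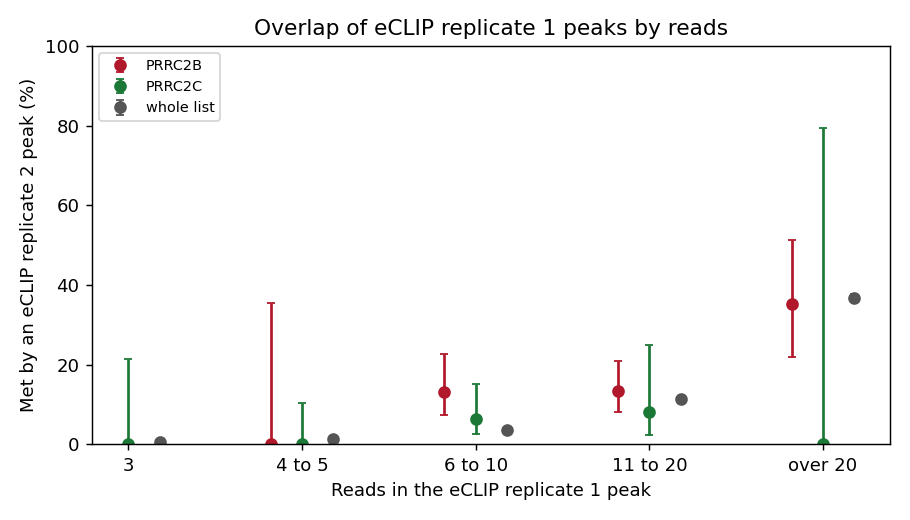
Percent of eCLIP replicate 1 peaks that share at least 1 base with an eCLIP replicate 2 peak (y axis), by the reads in the peak (x axis), for PRRC2B, PRRC2C and the whole list, with 95% Wilson intervals. PRRC2B lies near the whole list at 11 to 20 reads (13.3% and 11.3%) and over 20 reads (35.1% and 36.7%), and above it at 6 to 10 reads (13.2% and 3.68%).

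The shared PRRC2B peaks of eCLIP replicate 1 held a median of 16.5 reads and the others 12. Among the 38 overlapping pairs of PRRC2B the reads in the 2 libraries did not rise together. Pearson's r was -0.122 on log2 reads and Spearman's rho was -0.200, a description over pairs that share libraries and a gene. Over all PRRC2B peaks of eCLIP replicate 2 the quartiles were 3 and 5 reads, near the minimum, which leaves little room to see a rise. Every pair had more reads in eCLIP replicate 1, by a median factor of 3.62. In these pairs the positions the authors list inside each peak were a median of 5 bases apart, and within 10 bases in 26 of the 38. Sharing a base already holds peaks with median widths of 29 and 31 bases close together. The same distance was not measured over the whole list, so this is a description only.

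Gaps to the nearest peak of the other eCLIP library were measured with overlapping peaks counted as a gap of 0. The median gap from a PRRC2B peak of eCLIP replicate 2 to the nearest one of eCLIP replicate 1 was 27.5 bases, and 54 of 80 (67.5%) lay within 100 bases. For PRRC2C the median gap was 152 bases and 9 of 26 lay within 100 bases. From eCLIP replicate 1 to eCLIP replicate 2 the medians were 319 bases in PRRC2B and 936 in PRRC2C, with 27.0% and 8.82% of peaks within 100 bases. The denser PRRC2B list of 233 peaks leaves shorter gaps, so these values do not compare the genes on an equal footing.

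The best-supported reproducible sites of PRRC2B were ordered by the weaker of the p-values in the eCLIP libraries. The first ran from 134300698 to 134300790, with 21 reads in the first eCLIP list and 15 in an overlapping peak of the second (weaker p-value 1.25e-05). The next, from 134279338 to 134279378, began at the same base in both libraries, with 21 and 7 reads (1.34e-04). The third lay at 134295235 to 134295266 with 18 and 7 reads (2.10e-04). The fourth, at 134316559 to 134316580, held 10 and 6 reads (5.75e-04), and the fifth, at 134339035 to 134339060, held 8 and 7 (5.82e-04). None of these 5 overlapped an input peak. They had only 6 to 15 reads in eCLIP replicate 2.

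The pair with the lowest such p-value of the gene was left out of that order because it met an input peak. It lay at 134325991 to 134326024 with 14 reads in eCLIP replicate 1, 10 in eCLIP replicate 2 and 3 in input 2. An eCLIP replicate 2 peak of 15 reads, tied with the peak at the first site for the most of PRRC2B in that library, lay 21 bases before it, from 134325930 to 134325969, and overlapped no peak of the other 3 lists.

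The 5 reproducible sites of PRRC2C lay in the first 30 kb of its span. The first, from 171471706 to 171471738, held 13 reads in the first eCLIP list and 7 in the second (weaker p-value 3.12e-05). The next, at 171462676 to 171462696, held 9 and 6 (2.17e-04). The others began at 171455278, 171480440 and 171469558, with 8, 10 and 9 reads in the first eCLIP list and 4, 3 and 3 in the second. The last 2 thus rested on the minimum of 3 reads in the shorter list.

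Sites listed in both inputs were few. PRRC2B had 1, at 134302439 to 134302459, with 5 reads in input 1 and 4 in input 2 and no eCLIP peak. PRRC2A had peaks of both inputs at 2 places. At 31597323 to 31597347 input 1 had 5 reads and input 2 had adjoining peaks of 3 reads each, with no eCLIP peak. At 31597095 to 31597111 input 1 had 4 reads and input 2 had 3, and an overlapping eCLIP replicate 1 peak had 5. PRRC2C had none.

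All 3 input 2 peaks of PRRC2A therefore lay at places that input 1 also listed, where 1 of 14 did in PRRC2B, 0 of 8 in PRRC2C and 18.4% over the list. Likewise 4 of the 5 input 1 peaks of PRRC2A met a peak of eCLIP replicate 1 (80.0%, 37.6 to 96.4), against 7 of 28 in PRRC2B (25.0%, 12.7 to 43.4), 0 of 19 in PRRC2C and 12.8% over the list. The input 1 peaks of PRRC2A at 31603517 to 31603518 and 31603520 to 31603526 met the same eCLIP replicate 1 peak. The 5 are thus not all separate places, although the interval counts them so. Seen from the eCLIP side, 3 of the 21 PRRC2A peaks of eCLIP replicate 1 coincided with input 1. Its tallest eCLIP peaks held 8 reads each, at 31593610 to 31593649 and 31594608 to 31594641, and overlapped no peak of another library.

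Input 2 peaks of PRRC2B were also set against each eCLIP list. Of the 14 input 2 peaks, 8 (57.1%, 32.6 to 78.6) overlapped a peak of eCLIP replicate 2 and 3 (21.4%, 7.57 to 47.6) one of eCLIP replicate 1, although the latter held 233 peaks in the gene and the former 80. Over the whole lists the corresponding shares were 19.1% and 25.1%. Examples were an input 2 peak of 7 reads at 134316345 to 134316425, which met an eCLIP replicate 2 peak of 10 reads, and one of 6 reads at 134337810 to 134337860, which met one of 9, with no eCLIP replicate 1 peak at either. In PRRC2C 3 of 8 input 2 peaks met each eCLIP library. Of the 80 PRRC2B peaks of eCLIP replicate 2, 9 (11.2%, against 5.21% over the list) met input 2 and 2 met input 1. Whether the number marks a shared culture or preparation is not stated in the labels.

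**Figure D3:**
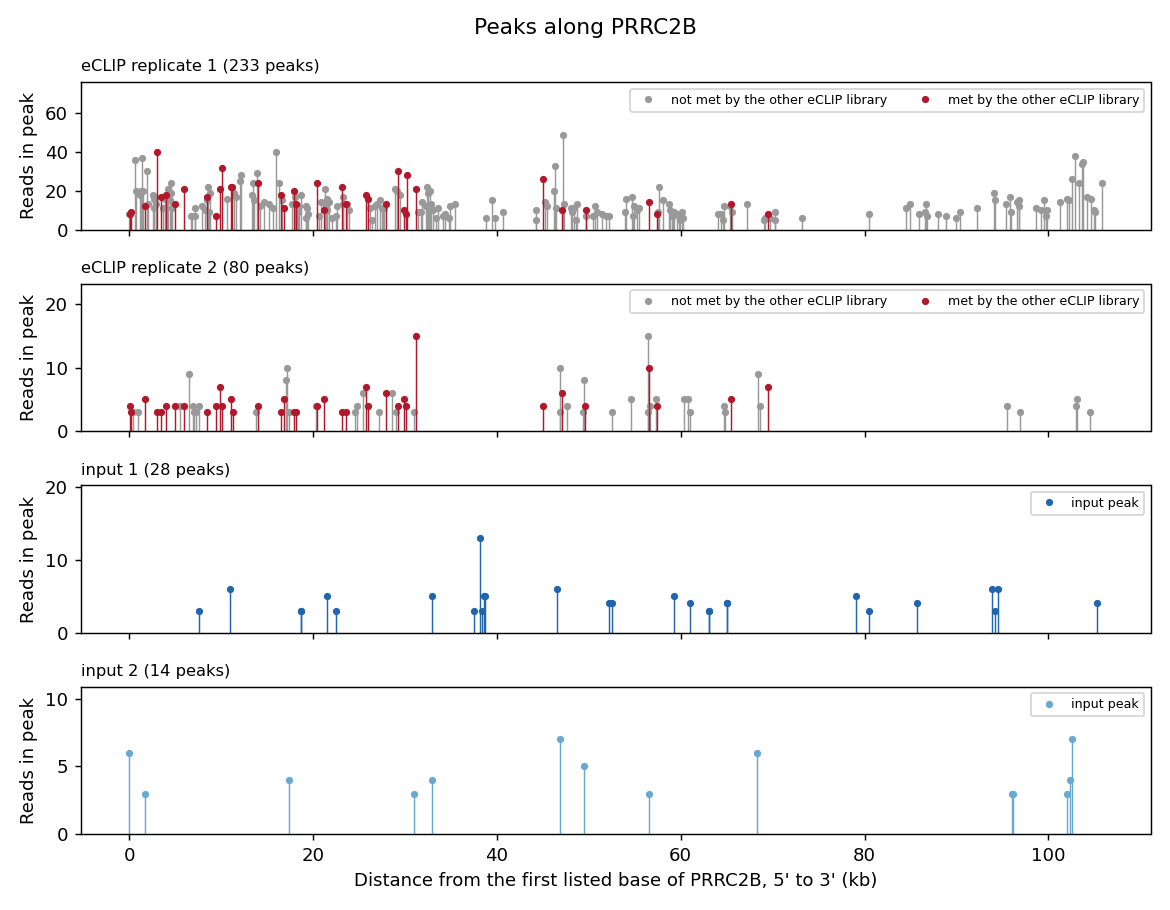
Each PRRC2B peak of the 4 libraries at its distance in kb from the first listed base, 5′ to 3′ (x axis), with the reads in the peak as its height (y axis, a separate scale for each library); red marks eCLIP peaks met by the other eCLIP library. The 38 shared peaks of eCLIP replicate 1 all lie in the first 69.6 kb, while peaks of up to 38 reads near the 3′ end are not shared.

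Along PRRC2B, all shared sites lay in the first 69.6 kb of the 106 kb span. The last reproducible peak ended at 134339060, 69.6 kb from the first listed base. Up to there eCLIP replicate 1 listed 191 peaks, of which 38 were met by eCLIP replicate 2, and beyond it 42 peaks, of which 0 were met. The 42 were not weak: their median was 11.5 reads against 12 before that point, and they included a peak of 38 reads at 134372345 to 134372401. eCLIP replicate 2 listed 75 peaks before the point and 5 after it, so few of the 42 could have been met. It listed no peak at all over 26.0 kb from 134339069. The longest gaps of the other lists overlapped that stretch. They were 27.7 kb from 134337861 in input 2, 14.0 kb from 134334567 in input 1 and 7.35 kb from 134342676 in eCLIP replicate 1. Input 1 had 21 and 7 peaks on the 2 sides, and input 2 had 9 and 5. The point was set by the shared peaks themselves, so these values are a description.

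Peaks of eCLIP were more often near the start of both long genes than input peaks were. The position was taken as the middle of a peak, relative to the span. In the first 20% of the PRRC2B span lay 34.3% of the peaks of eCLIP replicate 1 (28.5 to 40.6) and 42.5% of those of eCLIP replicate 2 (32.3 to 53.4), against 14.3% of input 1 (5.70 to 31.5) and 21.4% of input 2 (7.57 to 47.6). In PRRC2C the values were 53.7% (45.3 to 61.8) and 61.5% (42.5 to 77.6) against 15.8% (5.52 to 37.6) and 25.0% (7.15 to 59.1). In both genes both eCLIP libraries lay above both inputs, on 3 and 2 input 2 peaks in that part.

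The same separation was seen in 27.0% of the 289 genes with at least 5 peaks in each library and a span of at least 5 kb. The difference of the group means was 20.6 percentage points in PRRC2B and 37.2 in PRRC2C. It was larger than in 89.3% and 98.6% of those genes, where the median was 2.20. With 2 libraries a group an exact permutation test cannot pass 0.05, so none is given. The separation did not hold in every setting. Among peaks with a p-value of at most 0.001, the eCLIP values of PRRC2B were 38.7% and 25.0% and its input values 10.0% and 25.0%, on 4 input 2 peaks. In the first 10% of the PRRC2C span the values were 28.7% and 23.1% against 15.8% and 25.0%.

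At the other end, the last 20% of the PRRC2B span held 15.5% and 6.25% of the eCLIP peaks against 17.9% and 35.7% of the input peaks. Both eCLIP libraries lay below both inputs, as in 23.5% of the 289 genes, and on only 5 peaks in each library but eCLIP replicate 1. In PRRC2C the values were 17.6% and 3.85% against 31.6% and 12.5%, which overlap. In PRRC2A, 9 of the 21 eCLIP replicate 1 peaks and 3 of the 5 input 1 peaks lay in that part, and the 3 input 2 peaks all lay in the middle of the span.

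In 10 kb steps, the first 3 steps of PRRC2B held 42, 34 and 34 peaks of eCLIP replicate 1, with 697, 597 and 476 reads, and 28 of the 37 reproducible peaks. The step from 70 to 80 kb held the fewest, 3 peaks with 20 reads, and that from 100 to 106 kb held 13 peaks with 278 reads. In PRRC2C the first 2 steps held 34 and 36 peaks with 305 and 316 reads, and no later step of eCLIP replicate 1 held more than 13. eCLIP replicate 2 followed this shape in PRRC2C, with 6 and 10 peaks in the first 2 steps and at most 3 in any other. Input 1 did not: it listed 3 peaks in the first step and 0 in the next, and most of any step, 5, between 90 and 100 kb. Input 2 listed 2 of its 8 peaks in the first step, 0 in the next and 2 between 70 and 80 kb, too few to show a shape.

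**Figure D4:**
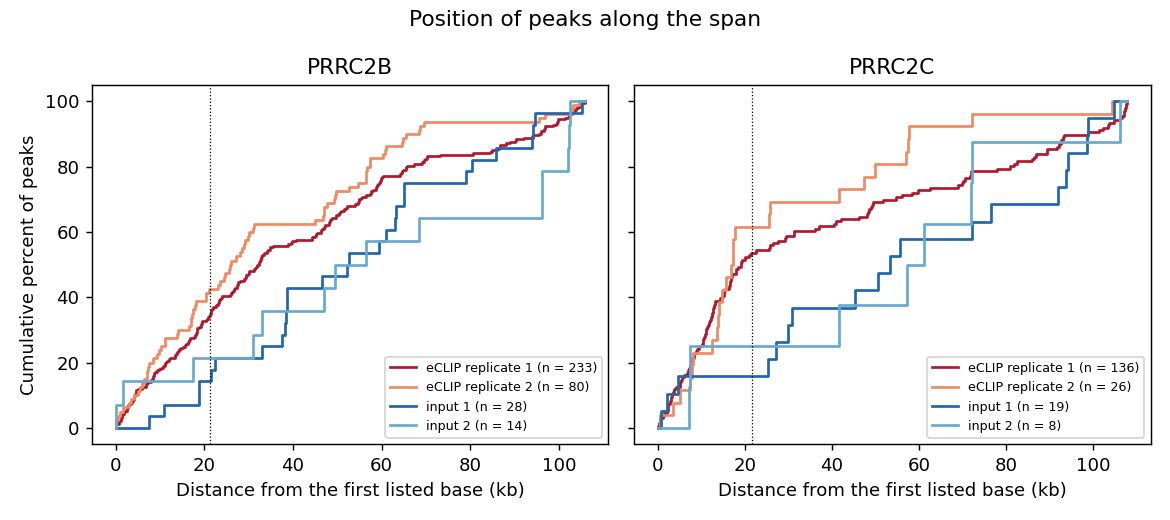
Cumulative percent of the peaks of PRRC2B and PRRC2C (y axis) with distance in kb from the first listed base of the gene (x axis), 1 line per library, with the first 20% of the span marked by a dotted line. At that line the eCLIP libraries have reached 34.3% and 42.5% in PRRC2B and 53.7% and 61.5% in PRRC2C, and the inputs between 14.3% and 25.0%.

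The surroundings of the tallest PRRC2B peaks differed between libraries. Its tallest eCLIP replicate 1 peak, of 49 reads from 134316631 to 134316731, met no peak of another list. Within 500 bases of it eCLIP replicate 2 had peaks of 3, 10, 6 and 4 reads, and input 2 had one of 7 reads that ended 205 bases before it. The tallest input 1 peak of the gene, of 13 reads from 134307603 to 134307646, had no peak of either eCLIP library and none of input 2 within 500 bases. The tallest input 2 peaks held 7 reads, and the one at 134372003 to 134372066 met an eCLIP replicate 1 peak of 26 reads.

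In PRRC2C the tallest peaks of both eCLIP libraries fell 342 bases apart. That of eCLIP replicate 1 held 41 reads from 171461681 to 171461760. The interval listed under ENSG00000239373.2 lay inside it, from 171461688 to 171461749 with 40 reads, so these reads cannot be assigned to PRRC2C alone. That of eCLIP replicate 2 held 22 reads from 171462103 to 171462190 and met an input 2 peak of 6 reads. The tallest input 2 peak, of 14 reads from 171526932 to 171526998, lay 45 bases after an eCLIP replicate 1 peak of 18 reads and overlapped no peak of another library.

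**Figure D5:**
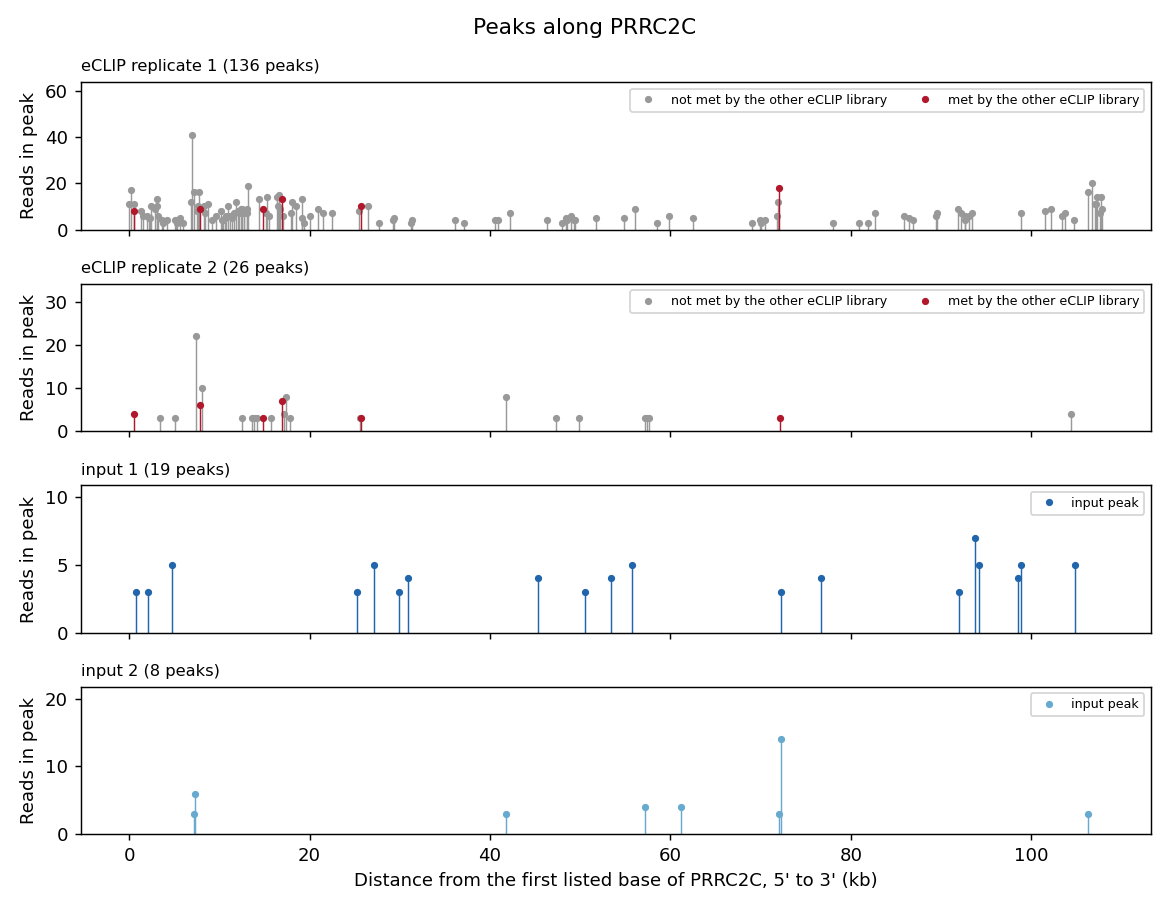
Each PRRC2C peak of the 4 libraries at its distance in kb from the first listed base, 5′ to 3′ (x axis), with the reads in the peak as its height (y axis, a separate scale for each library); red marks eCLIP peaks met by the other eCLIP library. The first 20 kb hold 70 of the 136 peaks of eCLIP replicate 1, and 6 peaks in all are shared.

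By its shares in the 4 libraries the gene nearest to each member was not a paralogue. With so few paralogues among so many genes this is likely for any family, and nothing is read from it. Likeness was the Euclidean distance over the 4 log2 shares, among the 8914 genes tested. The gene nearest to PRRC2B was ENSG00000065526.6 (chromosome 1, 16174374 to 16266923, plus strand), at a distance of 0.378, with 212, 83, 27 and 18 peaks. The next was ENSG00000078369.12, at 0.434. PRRC2C lay 1.92 from PRRC2B, with 83 other genes nearer to PRRC2B. PRRC2A lay 6.50 from PRRC2B, with 3603 nearer. Seen from PRRC2C, 395 other genes lay nearer than PRRC2B. The genes nearest to PRRC2C were ENSG00000130402.7 at 0.293 and ENSG00000100030.10 at 0.328. Nearest to PRRC2A was ENSG00000165280.11 at 0.0317, with 22, 0, 5 and 3 peaks, and then ENSG00000135821.11 at 0.191. With so few peaks, many short lists look alike on this measure.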

How the data were processed

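The submitters' processing notes name cutadapt, STAR and SAMtools and the hg19 build. Which versions, peak caller and annotation were used is not stated in the labels or file headers. Each library has its own peak list as the authors deposited it, with a p-value for each peak and a position inside it, so peaks were called per library. The files do not state that the last number of a peak's name is its reads. Library depth is unknown.

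The members and lists were chosen with earlier results of these data known. Shares were fitted with limma 3.58.1 in R 4.3.3 (lmFit, eBayes with trend, two-sided, Benjamini-Hochberg) over genes with at least 10 peaks. The fit was checked on simulated lists that held counting error only, with no other variation between libraries. That check does not show how the fit performs on lists that vary as these do. Named sites were up to 5 reproducible eCLIP-only peaks a gene, by the weaker p-value, and up to 2 sites in both inputs by reads. Likeness named 2 genes a member. The strongest peaks and the positions along the span were added after the data were seen. A list of translation initiation and stress granule genes could not be matched, since the files pair no names with identifiers, and was not analysed here.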

Additional observations from a re-analysis of the deposited data

How the results depend on the processing

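The log2 difference of PRRC2A kept its direction and its side of the threshold in every alternative that could be fitted. Among peaks with a p-value of at most 0.001 it had under 10 peaks and gave no value. With 1 library left out it lay between -2.21 and -0.92. That of PRRC2B lay between -0.58 and 1.29 with 1 library left out, so its sign rested on single libraries. That of PRRC2C reversed to 0.27 by reads, to 0.37 without eCLIP replicate 1 and to 0.43 without input 2, and fell to -0.69 without input 1. In such fits 1 group is a single library, whose variation is taken to be that of the other group. They called between 0 and 695 genes, the most without eCLIP replicate 2. Same-numbered libraries deviated together (r = 0.397 over genes), but 2 pairs do not settle a pairing. In both groups the library numbered 1 had the longer list, so number and list length cannot be told apart, also in a fit with the number as a block. With the replicate number as a block 4 genes were called, and the adjusted p was 0.364 for PRRC2A and 0.949 for PRRC2C.

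Reproducible eCLIP-only peaks numbered 37 in PRRC2B and 5 in PRRC2C, 7 and 2 at a p-value of at most 0.001, and 0 and 0 in lists of equal length. Counted on eCLIP replicate 2 they numbered 34 and 6. With an overlap of at least 10 bases they numbered 32 and 6. With at least 50% of the eCLIP replicate 1 peak overlapped they numbered 25 and 5. PRRC2A had 0 throughout, and its eCLIP replicate 2 list gave no share. The excess of eCLIP over input in the first 20% of the span was 12.8 points for PRRC2B and 5.48 for PRRC2C in the first 10%, and 14.3 for PRRC2B at a p-value of at most 0.001. By reads it was 47.6 for PRRC2C. With 1 library left out it lay between 16.5 and 24.6 for PRRC2B and between 32.6 and 41.8 for PRRC2C. The causes were not tested. The 41904 peaks of eCLIP replicate 2 and the 11204 of input 2 limit the comparisons that use those lists.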
